A study of Penicillium oxalicum with 18 samples.

Results

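The genes described here were silent in wild type Penicillium oxalicum and expressed in every library that lacked a Hap subunit. They were chosen by their measured levels, as below 1 FPKM in all 6 wild type libraries and at 10 FPKM or more in all 12 deletion libraries. FPKM counts fragments relative to gene length and to the mapped fragments of the library. The rule found 6 of the 9277 genes in the table: PDE_02339, PDE_03634, PDE_05458, PDE_05542, PDE_06665 and PDE_09197. The difference between wild type and the deletions is therefore the choice itself and is given below as values, with no test.

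Penicillium oxalicum is a filamentous fungus that secretes plant cell wall degrading enzymes. The strains were wild type 114-2, a hap3 deletion strain and a hap5 deletion strain, called Dhap3 and Dhap5 from here on. The number of transformants behind each deletion strain is not stated in the labels. Mycelium of all strains was precultured for 24 h at 30 °C on 2% glucose. For the next 24 h it grew on one of these media: 2% glucose, or 1% bran plus 1% microcrystalline cellulose (bran-cellulose medium). This gave 6 groups of 3 libraries. The labels do not say that replicates were separate cultures, so p-values reflect only how far these libraries differ, and that spread may be technical.

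Hap3 and Hap5 belong to the Hap complex, a DNA-binding regulator of transcription found from fungi to plants and animals (NF-Y in mammals) that binds CCAAT sequences in promoters. Both carry a histone fold and pair with each other before Hap2 joins and the complex meets DNA, so loss of either subunit is known from yeast and Aspergillus to abolish binding. In those fungi the complex is known for activating respiratory genes in yeast and for roles in carbon, nitrogen and iron metabolism and in secondary metabolism. The files give no name, function or coordinate for the PDE identifiers, and 0 of the 9277 matched the reference gene table at hand, so roles of the single genes and their sequences are not given.

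Library totals lay between 966280 and 1202683 FPKM, and the sequencing depth behind them is unknown. The highest total was that of replicate 2 of Dhap3 on glucose. Its median gene level was 4.45 on the log2(FPKM + 1) scale, against 4.73 and 4.75 in replicates 1 and 3 of that group. As a check of the strain labels, 1 gene was lower in every Dhap3 library than in every library of the other strains by 4 times or more (PDE_02832, at most 12.18 against at least 134.38 FPKM). Likewise 1 gene was low in Dhap5 (PDE_01016, at most 2.22 against at least 118.83 FPKM). Whether these are hap3 and hap5 is not stated in the files.

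Most of the 6 genes were listed at 0 throughout wild type on both carbon sources. PDE_02339, PDE_03634, PDE_05458 and PDE_06665 were listed at 0 in all 6 wild type libraries. PDE_05542 was listed at 0 in 5 of them and at 0.44 FPKM in replicate 3 on glucose. PDE_09197 was the only 1 of the 6 listed above 0 in every wild type library, at 0.24, 0.13 and 0.17 FPKM on glucose and 0.12, 0.4 and 0.17 FPKM on bran-cellulose. Of the 36 wild type values of these genes, 29 were 0, so no fold change against wild type is given, and an exact 0 can also be a failed estimate. In RNA from whole mycelium, fewer cells that express a gene and less RNA per cell cannot be told apart.

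**Figure D1:**
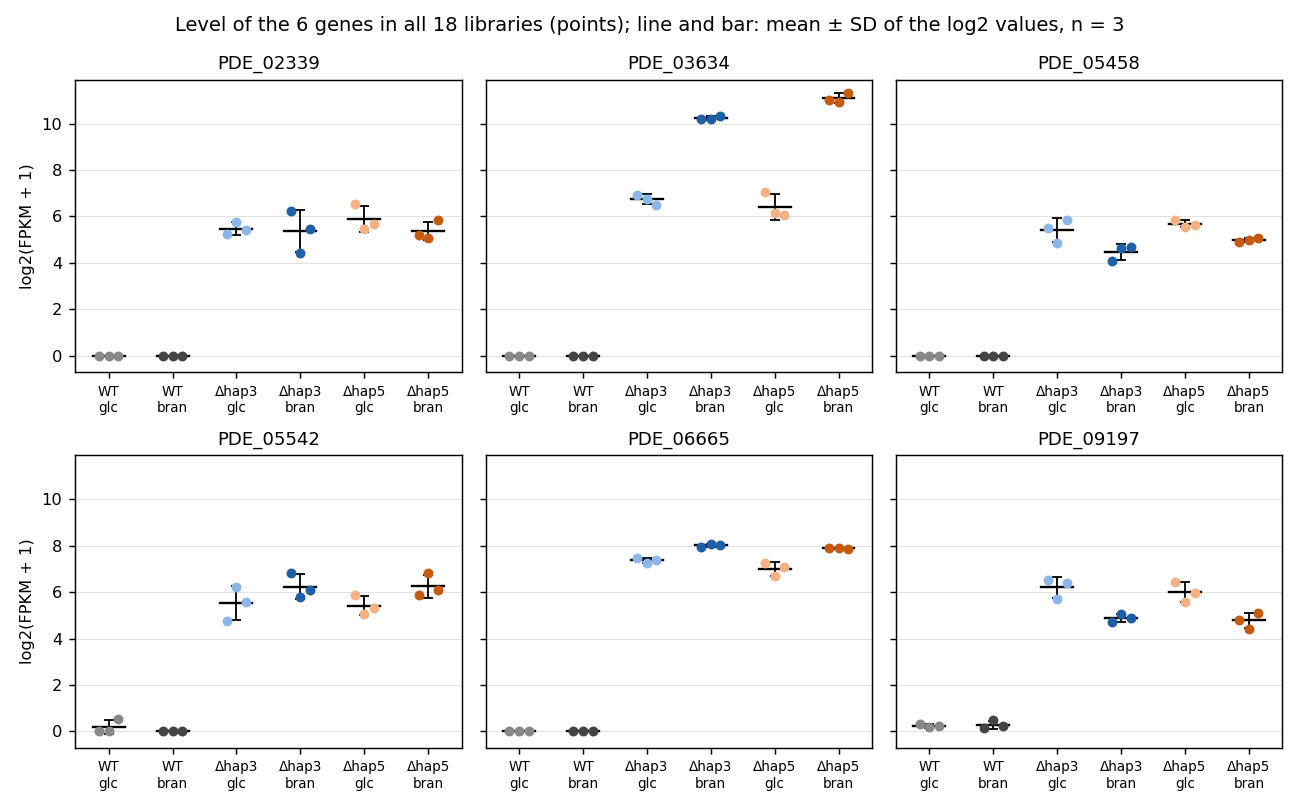
Level of the 6 genes in each library on the log2(FPKM + 1) scale, by strain (WT, wild type; Δ, deletion) and carbon source (glc, glucose; bran, bran with microcrystalline cellulose). Points are libraries, and lines with bars are the mean ± SD of the log2 values of 3 libraries. Wild type lies at or near 0 in every panel, and PDE_03634 is the gene that stands far higher on bran-cellulose than on glucose in both deletions.

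The counts of other silent genes given here depend on the limits that chose the 6 genes. In all, 837 genes lay below 1 FPKM in every wild type library, and 344 of them also stayed below 1 FPKM in all 12 deletion libraries. At the other end 109 of the 837 reached 10 FPKM in at least 1 deletion library. On bran-cellulose 32 of the 837 were at 10 FPKM or more in all 6 deletion libraries, and on glucose 11 were. The 6 genes are those common to both lists. Of all 9277 genes, 5449 were at 10 FPKM or more in all 12 deletion libraries. The reverse pattern, below 1 FPKM in all 12 deletion libraries and at 10 FPKM or more in all 6 of wild type, was found at 2 genes, PDE_02960 and PDE_06420.

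**Figure D2:**
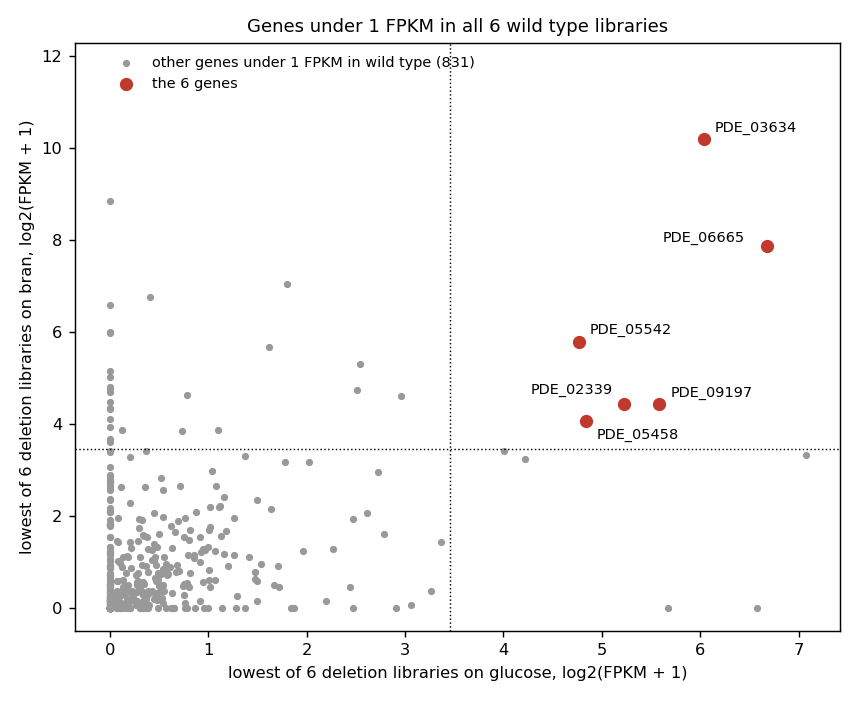
The 837 genes below 1 FPKM in all 6 wild type libraries, each at its lowest level among the 6 deletion libraries on glucose (horizontal axis) and among the 6 on bran-cellulose (vertical axis), on the log2(FPKM + 1) scale. Dotted lines mark 10 FPKM; the 6 genes fill the upper right corner by the rule that chose them, and grey points elsewhere are the other 831.

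Other genes lay close to the limits. Just inside, PDE_05458 had the lowest value of any of the 6 genes in a deletion library (15.68 FPKM). Just outside, PDE_08763, PDE_03484 and PDE_08971 were below 1 FPKM in wild type and stood at 9.64, 9.05 and 8.45 FPKM in their lowest deletion library. Of these PDE_03484 was high on glucose, at 133.51 to 246.31 FPKM in the deletions, and missed the rule on bran-cellulose, at 9.05 to 17.99 FPKM. PDE_09182, PDE_03308 and PDE_02614 were at 10 FPKM or more in all deletion libraries but reached 1.19, 1.8 and 1.88 FPKM in wild type. With the deletion limit at 5 FPKM the list would hold 11 genes, at 2 FPKM 21 genes and at 1 FPKM 42 genes. With the wild type limit at 2 FPKM it would hold 10, and at 5 FPKM 19.

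PDE_03634 was the most abundant of the 6 genes on bran-cellulose. There it was at 1184.13, 1169.94 and 1295.28 FPKM in Dhap3 and at 2081.02, 1922.27 and 2560.11 FPKM in Dhap5. On glucose it was at 121.4, 107.15 and 90.3 FPKM in Dhap3 and at 132.31, 70.9 and 64.83 FPKM in Dhap5. All bran-cellulose libraries lay far above all glucose libraries. Within bran-cellulose Dhap5 lay above Dhap3 without overlap, whereas on glucose the deletions overlapped. In Dhap5 on bran-cellulose PDE_03634 held ranks from 22 to 50 among all 9277 genes, and in Dhap3 from 105 to 121.

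PDE_06665 was on at a similar level in both deletions. It was at 246.04, 271.58 and 258.27 FPKM in Dhap3 and at 239.77, 237.57 and 234.03 FPKM in Dhap5 on bran-cellulose. On glucose it was at 175.43, 152.26 and 167.77 FPKM in Dhap3 and at 150.93, 101.62 and 134.99 FPKM in Dhap5. Every bran-cellulose library was above every glucose library, and on each medium Dhap3 libraries lay narrowly above those of Dhap5. Its coefficient of variation in Dhap5 on bran-cellulose, 1.22%, was lower than that of all but 3.26% of the 6749 genes whose mean there was 10 FPKM or more. In Dhap5 on glucose its coefficient of variation was 19.5%, above that of 88.3% of such genes, and in Dhap3 it was 4.94% on bran-cellulose and 7.15% on glucose.

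PDE_09197 and PDE_05458 were higher on glucose. PDE_09197 was at 90.89, 51.06 and 82.56 FPKM in Dhap3 and at 85.33, 47.02 and 61.82 FPKM in Dhap5 on glucose. On bran-cellulose PDE_09197 was at 24.86, 31.88 and 28.42 FPKM in Dhap3 and at 27.26, 20.49 and 33.06 FPKM in Dhap5. No bran-cellulose library of PDE_09197 reached the lowest glucose library, while the deletions overlapped on each medium. PDE_05458 was at 44.82, 27.61 and 56.77 FPKM in Dhap3 and at 56.48, 45.77 and 48.96 FPKM in Dhap5 on glucose. On bran-cellulose PDE_05458 was at 15.68, 23.74 and 24.86 FPKM in Dhap3 and at 28.89, 30.72 and 32.61 FPKM in Dhap5. Its media did not overlap within either strain, and on bran-cellulose its Dhap5 libraries all lay above those of Dhap3.

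PDE_02339 and PDE_05542 varied widely between replicates. PDE_02339 was at 36.43, 53.84 and 41.95 FPKM on glucose and at 74.73, 20.53 and 42.83 FPKM on bran-cellulose in Dhap3. In Dhap5 it was at 92.04, 43.61 and 49.96 FPKM on glucose and at 35.75, 32.83 and 55.73 FPKM on bran-cellulose. All 4 deletion groups of PDE_02339 overlapped. PDE_05542 was at 26.19, 72.85 and 47.28 FPKM on glucose and at 111.8, 54.52 and 67.81 FPKM on bran-cellulose in Dhap3. In Dhap5 PDE_05542 was at 57.84, 32.4 and 38.95 FPKM on glucose and at 57.21, 111.82 and 67.31 FPKM on bran-cellulose. The media overlapped in both strains. The coefficient of variation of PDE_02339 in Dhap3 on bran-cellulose was 59.2%, higher than that of 99.2% of the 6751 genes whose mean there was 10 FPKM or more, whose median was 6.46%. In Dhap3 on glucose it was 20.2%, above that of 66.3% of such genes, and in Dhap5 it was 30.1% on bran-cellulose and 42.5% on glucose. That of PDE_05542 lay above that of at least 95.4% of such genes in each of the 4 deletion groups. Wide spread was not confined to these genes. In Dhap5 on glucose all 6 genes lay above the median of 8.06%, with PDE_03634 at 41.8% and PDE_09197 at 29.8%. In each of the other deletion groups 4 of the 6 lay above the median. That median was 15.2% in Dhap3 on glucose, and 6.46% in Dhap3 and 6.74% in Dhap5 on bran-cellulose. PDE_05458 was at 23.4% in Dhap3 on bran-cellulose, above that of 95.9% of such genes.

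In order of level, PDE_03634 led on bran-cellulose with means of 1216 ± 68.6 FPKM (SD, n = 3) in Dhap3 and 2188 ± 332 FPKM in Dhap5. PDE_06665 followed at 258.6 ± 12.8 and 237.1 ± 2.9 FPKM. PDE_05542 came next at 78.0 ± 30.0 and 78.8 ± 29.1 FPKM, and overlapped PDE_02339, at 46.0 ± 27.2 and 41.4 ± 12.5 FPKM, in Dhap3. PDE_09197, at 28.4 ± 3.51 and 26.9 ± 6.29 FPKM, and PDE_05458, at 21.4 ± 5.01 and 30.7 ± 1.86 FPKM, had the lowest means, with libraries that overlapped or met in both strains. PDE_02339 overlapped PDE_09197 in both strains, so their order is not resolved. On glucose PDE_06665 was highest, at 165.2 ± 11.8 and 129.2 ± 25.2 FPKM in Dhap3 and Dhap5, ahead of PDE_03634 at 106.3 ± 15.6 and 89.3 ± 37.3 FPKM, though the libraries of these genes overlapped in Dhap5. The other 4 genes lay between 43.1 and 74.8 FPKM as group means on glucose. The libraries are described as tag libraries in the labels' protocols, so the order between genes may change with how length was divided out.

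Carbon source was compared within each deletion strain, a comparison that leaves out wild type. It is bounded by the choice of genes, since a gene that dropped below 10 FPKM on either medium could not be among the 6. Log2 values are differences on the log2(FPKM + 1) scale from limma, fitted across all 8501 genes tested in the 12 deletion libraries, with Benjamini-Hochberg adjustment. Calls required an adjusted p under 0.05 together with a log2 difference of 1 or more. In Dhap3 1 of the 6 genes rose on bran-cellulose and 1 fell, where 18.9% of all genes rose and 13.8% fell (32.6% in all). In Dhap5 the counts were again 1 and 1, where 14.1% rose and 11.2% fell (25.2% in all). The median log2 difference of the 6 genes was 0.27 in Dhap3 and 0.16 in Dhap5, against 0.05 and -0.08 over all genes.

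PDE_03634 rose on bran-cellulose by a log2 value of 3.51 (SE 0.23, adjusted p = 1.92e-07) in Dhap3, or 11.4-fold. In Dhap5 it rose by 4.66 (SE 0.23, adjusted p = 2.54e-08), or 25.3-fold. PDE_09197 fell by 1.33 (SE 0.26, adjusted p = 0.000892) in Dhap3 and by 1.22 (SE 0.26, adjusted p = 0.00203) in Dhap5. These calls held under all 21 alternatives run for them, the leaving out of each library included.

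Smaller differences passed the adjusted p without reaching the minimum change. PDE_06665 was higher on bran-cellulose by 0.65 (SE 0.12, adjusted p = 0.000772) in Dhap3 and by 0.89 (SE 0.12, adjusted p = 9.48e-05) in Dhap5. PDE_05458 was lower, at -0.94 (SE 0.24, adjusted p = 0.00447) and -0.69 (SE 0.24, adjusted p = 0.0263). With no minimum change 69.4% of all genes passed in Dhap3 and 61.2% in Dhap5, so 4 of 6 is near the background. In Dhap3 PDE_05458 and PDE_05542 both reached the call when glucose replicate 2 was left out, which took the count of called genes from 2 to 4. In all, PDE_05458 in Dhap3 reached the call in 5 of 21 alternatives, with values down to -1.22. PDE_06665 in Dhap5 did so in 2 of 21, with values up to 1.01. These counts include the alternative with no minimum change.

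PDE_05542 and PDE_02339 did not pass. PDE_05542 had log2 differences of 0.72 (95% interval -0.16 to 1.59) in Dhap3 and 0.84 (-0.04 to 1.72) in Dhap5. PDE_02339 had -0.10 (-1.04 to 0.83) and -0.53 (-1.46 to 0.41). These intervals hold changes of up to about the size of the calling limit in 1 direction or beyond it, so a carbon source response of these genes was not detectable at this spread between replicates.

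**Figure D3:**
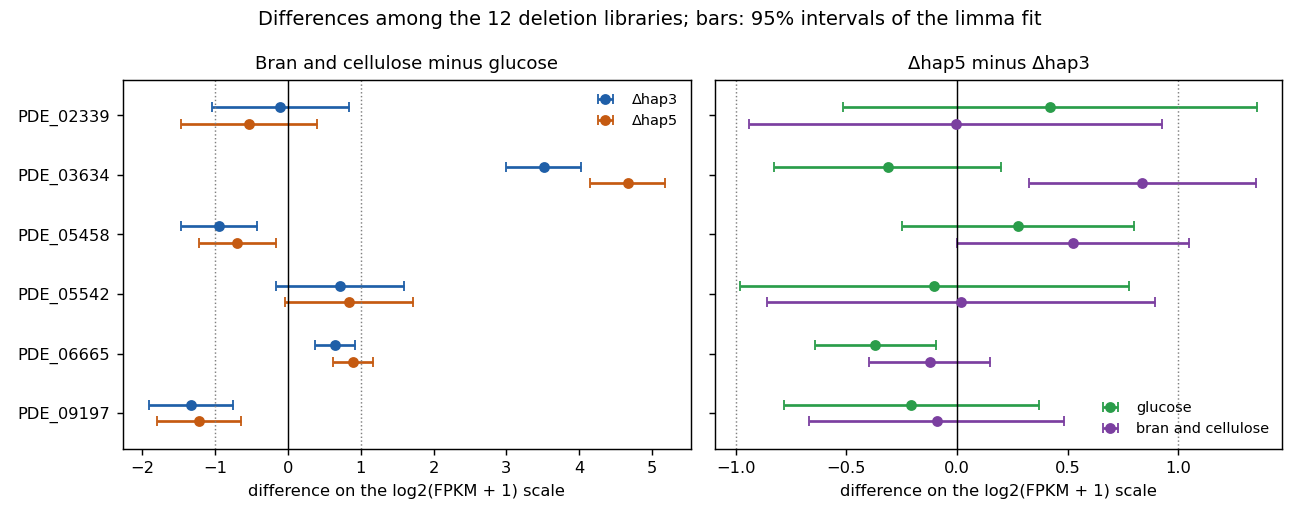
Differences of the 6 genes among the 12 deletion libraries on the log2(FPKM + 1) scale, with 95% intervals of the limma fit: bran-cellulose minus glucose in each strain (left), and Dhap5 minus Dhap3 on each medium (right). Dotted lines mark a log2 value of 1 in either direction; the responses of PDE_03634 stand at 3.51 and 4.66, and no difference between the strains passed the test.

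The deletions were then compared with each other. This comparison is also bounded by the choice, since a gene below 10 FPKM in any library of either deletion could not be among the 6. Few genes of any kind were called here, so a count of 0 of 6 is near the background and does not show that the deletions agree. On glucose 0 of the 6 genes were called between Dhap5 and Dhap3, where 3.61% of all genes were called, and 1 had an unadjusted p under 0.05. That gene was PDE_06665, lower in Dhap5 at -0.37 (95% interval -0.64 to -0.09, adjusted p = 0.0695). On bran-cellulose 0 of 6 were called, where 0.376% of all genes were, and 2 had an unadjusted p under 0.05. They were PDE_03634, higher in Dhap5 at 0.84 (0.32 to 1.35, adjusted p = 0.143), and PDE_05458, at 0.53 (0.0007 to 1.05, adjusted p = 0.417). The widest intervals were those of PDE_02339, from -0.51 to 1.36 on glucose and from -0.94 to 0.93 on bran-cellulose, so higher or lower levels in Dhap5 within these bounds are not resolved there.

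The response to carbon source differed between the strains at PDE_03634. It was larger in Dhap5 by 1.15 (SE 0.33, adjusted p = 0.0488), where 3.82% of all genes were called. This call is marginal: it was lost when any 1 of 10 of the 12 libraries was left out, with adjusted p up to 0.11, while the difference itself stayed between 0.96 and 1.47. The other 5 genes had differences between -0.43 and 0.25, with adjusted p from 0.385 upward.

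Among the 12 deletion libraries the 6 genes did not follow 1 common course. On the log2(FPKM + 1) scale PDE_03634 and PDE_06665 correlated at 0.90 and PDE_05458 and PDE_09197 at 0.81, while PDE_03634 and PDE_09197 stood at -0.86. With group means removed the last of these was 0.59, so the negative value lies between the media. The correlations of PDE_02339 with the other 5 genes lay between -0.33 and 0.27. They are descriptions over 12 libraries in 4 groups, and genes of 1 library share its scaling.

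Genes with a like pattern over all 18 libraries were sought by Pearson correlation on the log2(FPKM + 1) scale. Each of the 6 genes had between 64 and 86 others at 0.95 or more among 8675 genes. Any gene low in wild type and high in the deletions scores well, so likeness mostly restates the choice. The nearest to PDE_03634 was PDE_05913 (0.994), which did not exceed 2.04 FPKM in wild type and stood at 16.3 ± 2.45, 12.5 ± 1.33, 40.2 ± 4.28 and 40.7 ± 5.3 FPKM in Dhap3 and Dhap5 on glucose and then on bran-cellulose. It was followed by PDE_00690 (0.992) and PDE_05782 (0.989). PDE_02614 was nearest both to PDE_06665 (0.994) and to PDE_05542 (0.989), and PDE_00247 was second to both (0.992 and 0.985). The third places went to PDE_04361 (0.992) for PDE_06665 and to PDE_00426 (0.984) for PDE_05542.

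The nearest to PDE_09197 was PDE_08971 (0.992), a gene just outside the limits, at 21.5 ± 3.37 and 19.6 ± 2.16 FPKM on glucose and 10.9 ± 1.47 and 9.74 ± 1.12 FPKM on bran-cellulose in Dhap3 and Dhap5. PDE_01768 (0.988) and PDE_05060 (0.987) came next. For PDE_05458 the nearest were PDE_01756 (0.992), PDE_08763 (0.987) and PDE_09467 (0.985). For PDE_02339 they were PDE_01772 (0.988), PDE_01899 (0.986) and PDE_06924 (0.986), which reached 42.16, 227.66 and 15.44 FPKM in wild type and so share the shape and not the silence. The same holds for most others named. In wild type PDE_00426 reached 98.42, PDE_05060 83.76, PDE_01768 61.66 and PDE_09467 44.81 FPKM. PDE_00690 reached 20.17, PDE_04361 18.86, PDE_01756 9.87 and PDE_05782 5.56 FPKM. PDE_02614 and PDE_00247 reached 1.88 and 1.89 FPKM, and only PDE_08763 and PDE_08971 stayed below 1 FPKM.

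Genes of a secondary metabolite pathway in fungi often lie side by side in the genome, so the levels of neighbouring identifiers were examined. Neighbours were taken as PDE numbers within 5 of a gene, which gave 56 genes, 54 of them tested in a limma fit over all 18 libraries. The genome order of the numbers was not checked, as no coordinates were used. Of the 54, 0 were called higher in both deletions on both media (5.98% of all genes were), and 2 were called lower in all 4 comparisons (2.72% of all genes were). The 0 depends on the window. Within 10 numbers PDE_05464, PDE_09203 and PDE_09207 were called higher in all 4 comparisons, and PDE_05450, PDE_05451 and PDE_05548 joined those called lower. On glucose 10 neighbours rose in Dhap3 and 5 in Dhap5, or 18.5% and 9.26% of those tested, against 15.3% and 17.6% of all genes. On bran-cellulose 11 and 15 rose, or 20.4% and 27.8%, against 16.7% and 16.4%. Comparisons on 1 medium share the wild type libraries.

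**Figure D4:**
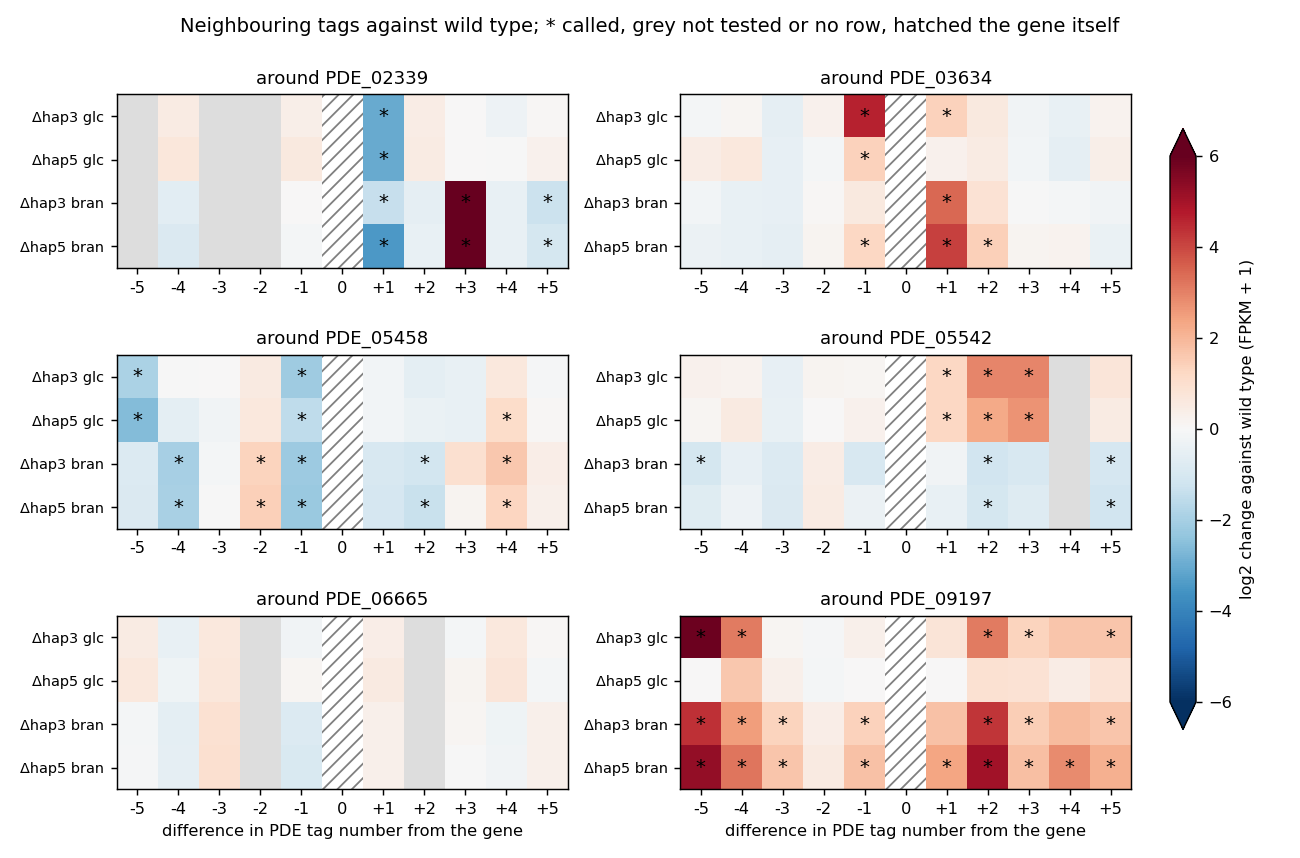
Log2 change against wild type on the log2(FPKM + 1) scale for identifiers within 5 numbers of each of the 6 genes, in Dhap3 and Dhap5 (Δ) on glucose (glc) and on bran with cellulose (bran). Stars mark called changes, and grey marks genes not tested or numbers with no row. The hatched column is the gene itself, which is not tested. Of the 10 neighbours of PDE_09197, 9 rose in Dhap5 on bran-cellulose and 0 in Dhap5 on glucose, against 16.4% and 17.6% of all genes. The 8 tested neighbours of PDE_06665 hold no call.

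Within 5 numbers, PDE_06665 was the gene without a called neighbour. Of the 10 genes numbered next to it, 8 were tested and 0 were called in any of the 4 comparisons with wild type. In single comparisons 15.3% to 17.6% of all genes were called higher and 7% to 13.4% lower. The share of all genes called in at least 1 of the 4 is not given. The adjoining PDE_06664 and PDE_06666 were expressed in wild type, at group means of 84.8 and 10.4 FPKM on glucose. On bran-cellulose PDE_06664 passed the adjusted p without reaching the minimum change, at -0.84 (SE 0.14, adjusted p = 0.000112) in Dhap3 and -0.92 (SE 0.14, adjusted p = 4.41e-05) in Dhap5. The absence of calls depends on the window. Within 10 numbers PDE_06659 was called higher on glucose, at 1.85 in Dhap3 and 3.37 in Dhap5, and PDE_06673, PDE_06674 and PDE_06675 also held calls.

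By number, PDE_09197 lay in a run of responsive genes. Of its 10 neighbours, 5 rose in Dhap3 on glucose, 7 rose in Dhap3 and 9 in Dhap5 on bran-cellulose, and 0 rose in Dhap5 on glucose. Of all genes, 15.3% rose in Dhap3 and 17.6% in Dhap5 on glucose, and 16.7% and 16.4% on bran-cellulose. PDE_09195 was the neighbour never called. With a pseudocount of 0.1, PDE_09193 and PDE_09202 were also called higher in Dhap5 on glucose. The other 5 genes together had 44 tested neighbours, of which 5 and 5 rose on glucose and 4 and 6 on bran-cellulose in Dhap3 and Dhap5. As shares of the 44 these were 11.4% in both deletions on glucose and 9.09% and 13.6% on bran-cellulose, below the shares of all genes. Setting PDE_09197 apart takes out the neighbours that rose most on bran-cellulose, so the lower shares there follow in part from this split. Of the same 44, 3 and 3 fell on glucose (6.82% in both deletions, against 8.74% and 7% of all genes). On bran-cellulose 8 and 7 fell, more than rose there (18.2% and 15.9%, against 13.4% and 13.2% of all genes). Among all 54 tested neighbours 11 and 15 rose there and 8 and 7 fell.

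Some neighbours of PDE_09197 differed from it in how they varied between replicates. PDE_09199, chosen after its values were seen, was at 3.57, 26.75 and 130.4 FPKM in Dhap3 and at 62.38, 7.3 and 157.09 FPKM in Dhap5 on bran-cellulose. On glucose PDE_09199 was at 3.05, 11.98 and 19.6 FPKM in Dhap3 and at 1.36, 1.03 and 1.33 FPKM in Dhap5, and it did not exceed 0.46 FPKM in wild type. PDE_09192 was listed at 0 in all wild type libraries, and on bran-cellulose was at 0, 34.69 and 254.45 FPKM in Dhap3 and at 112.42, 0.52 and 337.36 FPKM in Dhap5. The same libraries were high at both genes, as replicate 3 of each deletion was highest and replicate 1 of Dhap3 and replicate 2 of Dhap5 were lowest. PDE_09197 itself ranged from 20.49 to 33.06 FPKM in these 6 libraries, less than those neighbours. It was not steady beside genes at large, as its coefficient of variation of 23.4% in Dhap5 there was above that of 94.8% of genes. The neighbour PDE_09195 did not spread widely either, at 912.9 to 1132.9 FPKM in the same libraries. PDE_09192 was at 27.23, 43.12 and 168.02 FPKM in Dhap3 on glucose, while all 3 Dhap5 libraries there were listed at 0.

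PDE_09199 rose by 4.27 (SE 1.06, adjusted p = 0.00232) and 5.04 (SE 1.06, adjusted p = 0.000638) in Dhap3 and Dhap5 on bran-cellulose. The SE pools the spread of all 18 libraries, and PDE_09199 and PDE_09192 hardly varied in wild type or in Dhap5 on glucose. For the widely spread deletion libraries on bran-cellulose it is therefore likely too small, and so are the adjusted p-values of these genes there. On glucose PDE_09199 rose by 3.13 (SE 1.06, adjusted p = 0.0187) in Dhap3, a call lost without replicate 3 of that group, where the value was 2.63. Its difference in Dhap5 on glucose was 0.93 (SE 1.06, adjusted p = 0.473). The difference between the deletions on glucose was -2.20 (SE 1.24, adjusted p = 0.257) at PDE_09199 and did not pass the test at any of the 10 neighbours, so the run is not shown to differ between them. Without replicate 3 of Dhap3 on bran-cellulose, the 56 neighbours of all 6 genes held 6 genes that rose there in place of 11. Among the calls lost with that library were those of PDE_09192, PDE_09193 and PDE_09202. That of PDE_09192 (adjusted p = 0.043) was lost in 11 of 25 alternatives, with adjusted p up to 0.224. In Dhap5 on bran-cellulose the call of PDE_09192 (adjusted p = 0.0177) was lost without replicate 1 or without replicate 3.

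**Figure D5:**
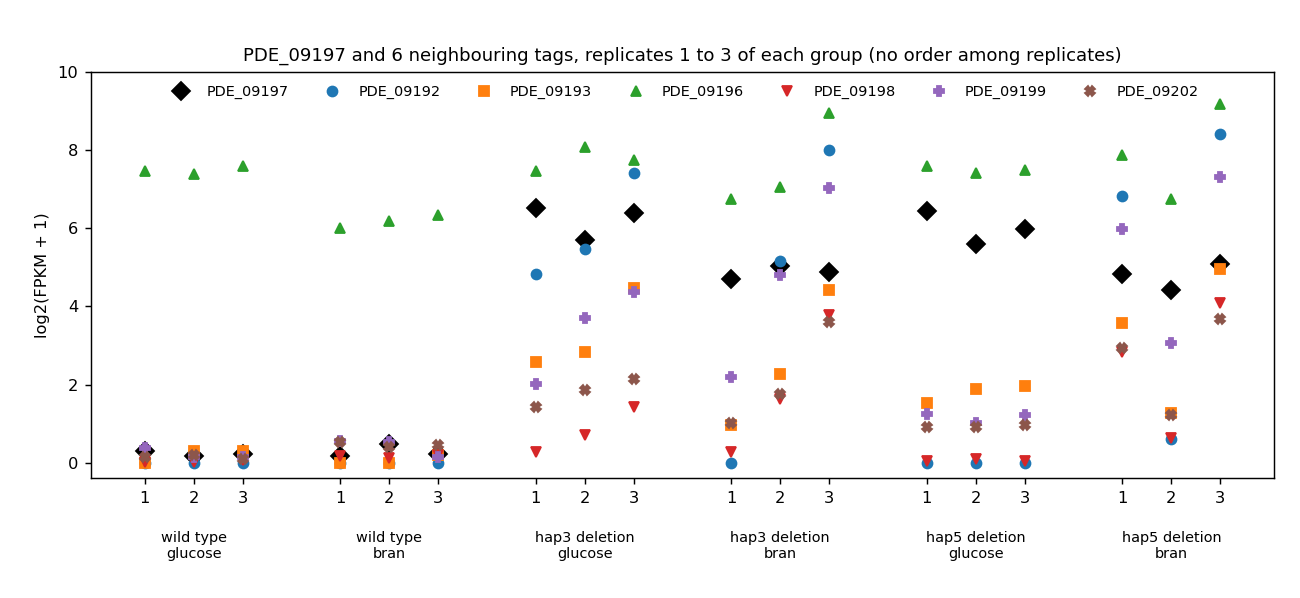
PDE_09197 (black diamonds) and 6 of its 10 neighbours in each library on the log2(FPKM + 1) scale, by group; the numbers on the horizontal axis are replicates, which have no order. On bran with cellulose in the deletions these 6 neighbours spread widely between replicates, with PDE_09192 between 0 and 337.36 FPKM, while PDE_09197 stays between 20.49 and 33.06 FPKM.

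The genes numbered directly beside PDE_03634 also changed, and were expressed in wild type. PDE_03633, chosen after its values were seen, was at 29.19, 21.1 and 38.09 FPKM in wild type on glucose, at 727.15, 987.21 and 529.94 FPKM in Dhap3 and at 56.96, 107.86 and 69.34 FPKM in Dhap5. It rose by 4.61 (SE 0.27, adjusted p = 1.36e-09) and 1.36 (SE 0.27, adjusted p = 0.000486), and was lower in Dhap5 than in Dhap3 by a log2 value of -3.25 (SE 0.25, adjusted p = 3.68e-05). On bran-cellulose it rose in Dhap5 by 1.23 (SE 0.27, adjusted p = 0.000998), and in Dhap3 the difference of 0.60 (SE 0.27, adjusted p = 0.0665) did not pass.

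PDE_03635, on the other side, rose on bran-cellulose from 7.54, 7.72 and 9.17 FPKM in wild type to 85.14, 97.73 and 118.16 FPKM in Dhap3. In Dhap5 it rose to 152.06, 133 and 186.01 FPKM. The log2 changes were 3.46 (SE 0.23, adjusted p = 3.41e-09) and 4.10 (SE 0.23, adjusted p = 4.72e-10). On glucose PDE_03635 rose by 1.40 (SE 0.23, adjusted p = 9.24e-05) in Dhap3, and its difference of 0.24 (SE 0.23, adjusted p = 0.391) in Dhap5 did not pass. Between the deletions, PDE_03635 was lower in Dhap5 than in Dhap3 on glucose, at -1.16 (SE 0.21, adjusted p = 0.00459), and the difference of 0.64 (SE 0.21, adjusted p = 0.211) on bran-cellulose did not pass.

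The 2 neighbours within 5 numbers that were called lower in all 4 comparisons carried the number next to that of a silent gene. PDE_02340, next to PDE_02339, had a wild type level of 7.17 ± 0.854 FPKM on glucose, and of 175.0 ± 17.7 FPKM on bran-cellulose. It was listed at 0 in all 6 deletion libraries on glucose and was at 65.7 ± 7.99 and 15.2 ± 1.4 FPKM on bran-cellulose in Dhap3 and Dhap5. PDE_02342, in the same stretch, did the reverse on bran-cellulose, from 0 in wild type to 467.6 ± 13.9 and 553.6 ± 52.8 FPKM, and was listed at 0 on glucose in all 9 libraries. PDE_05457, next to PDE_05458, fell from 113.6 ± 6.34 to 25.6 ± 6.39 and 39.3 ± 2.77 FPKM on glucose and from 214.6 ± 33.4 to 45.5 ± 1.77 and 45.3 ± 0.479 FPKM on bran-cellulose. Its changes were -2.13 and -1.51 on glucose and -2.20 and -2.21 on bran-cellulose (SE 0.14, adjusted p at most 2.49e-07).

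Of the 9 neighbours of PDE_05542, 3 rose in both deletions on glucose, and on bran-cellulose 3 fell in Dhap3 and 2 in Dhap5. PDE_05543, PDE_05544 and PDE_05545 were called higher in both deletions on glucose, where PDE_05544 went from 35.1 FPKM in wild type to 273.0 and 172.7 FPKM as group means. On bran-cellulose PDE_05544 was called lower in both, from 47.7 to 21.1 and 22.7 FPKM, and it was the neighbour of PDE_05542 called in opposite directions on the media. The difference between the media was not tested. PDE_05538 to PDE_05541 were called in no comparison with wild type.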

How the data were processed

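The authors deposited 1 table of FPKM values per gene and library, 18 libraries in 6 groups of 3, per the file headers. The sources used here do not give the aligner, the genome build or the annotation. The labels' protocols describe short tag libraries, whereas the deposited values are FPKM, so what length was divided out is not known. The bran columns carry another abbreviation in the table than in the sample titles and were matched by elimination. All columns matched a library, with 0 left over, and no pair of libraries held identical values.

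The 6 genes, the gene lists and the tests were chosen with earlier results of these data known. Values were taken as log2(FPKM + 1), which understates changes of low genes, and genes that reached 1 FPKM in 3 or more libraries entered a fit with limma 3.58.1 in R 4.3.3, with Benjamini-Hochberg adjustment over all genes tested. Comparisons among deletions used the 12 deletion libraries, because genes at 0 in wild type show almost no spread there. Neighbours within 5 PDE numbers were tested against wild type in a fit of all 18 libraries. For neighbours near 0 in wild type, this shared spread can be too small for deletion groups that vary widely. A call needed an adjusted p under 0.05 and a log2 change of at least 1. Genes named by rule were the 6, the 3 closest to each in pattern, 3 just outside each limit, and neighbours called the same way in all 4 comparisons with wild type. All other neighbours were named after their values were seen. The scripts were tested on simulated data. Sequencing depth is unknown, so no counting interval is given, and near-identical or antisense genes cannot be told apart here. Replicate numbers were not treated as pairs in the main fits.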

Additional observations from a re-analysis of the deposited data

Results flagged for a closer look

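The carbon source response of PDE_03634 differed between the deletions in a test of the difference itself, by a log2 value of 1.15 more in Dhap5 than in Dhap3 (limma, adjusted p = 0.0488). The call was lost in 14 of 20 alternatives, among them 10 of the 12 that left out 1 library, and the adjusted p ranged from 0.00282 to 0.11. What lies behind it was not tested.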

How the results depend on the processing

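Both carbon source calls of PDE_03634 and of PDE_09197 held in each deletion under all 21 alternatives. The difference in response at PDE_03634 did not: it was lost, leaving 0 of the 6 genes called, with a pseudocount of 0.1 (adjusted p = 0.053), with no filter (0.0637), after quantile normalization (0.0571) and with the replicate number as a block (0.0554), and leave-outs gave 0 to 1. Replicate numbers did not in general pair the libraries: of 45 same-number correlations 1 was over 0.1, and they ranged from -0.12 to 0.20. That 1, at 0.20, was between replicate 3 of Dhap3 and replicate 3 of Dhap5 on bran-cellulose. In each deletion on that medium, replicate 3 was also the library highest at PDE_09192 and PDE_09199. Whether these libraries share a replicate effect was not tested.

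With no minimum change the calls became 1283 (from 307) and 92 (from 32) between the deletions on glucose and on bran-cellulose, 5896 (from 2775) and 5199 (from 2146) between media in Dhap3 and Dhap5, 4 of the 6 genes (from 2) in each, and 938 (from 325) for the difference in response. Of the 54 tested neighbours, 21 (from 10) and 20 (from 5) then rose on glucose in Dhap3 and Dhap5, and 17 (from 11) in Dhap3 on bran-cellulose. The share of all genes that rose with no minimum change is not given for these comparisons, so these counts show nothing particular to the neighbours. The median log2 change of the neighbours on glucose was 0.21 in Dhap3 and 0.24 in Dhap5, against 0.14 and 0.24 over all genes. In Dhap3 on bran-cellulose it was -0.12, against 0.05. With the minimum change kept, the rising neighbours of Dhap5 on glucose numbered 8 with a pseudocount of 0.1 and 3 after quantile normalization. Neighbours within 3 numbers, of which 32 were tested, gave 7 in Dhap3 on bran-cellulose. Within 10 numbers 104 were tested, against 54 within 5, so the counts are larger by the window itself. They were 16 and 12 on glucose, where 15.3% and 17.6% of all genes rose. On bran-cellulose they were 23 and 27, where 16.7% and 16.4% of all genes rose. The compared groups alone gave 188 calls between the deletions on glucose.

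Leaving out 1 library gave 11 to 40 calls between the deletions on bran-cellulose (11 without Dhap3 replicate 1 or 2 on that medium), 2 to 4 of the 6 genes called between media in Dhap3, and 6 to 14 rising neighbours in Dhap3 on bran-cellulose. It turned the sign of uncalled differences. PDE_02339 ranged from -0.53 to 0.37 between media in Dhap3, from -0.90 to 0.0068 in the difference in response and from -0.48 to 0.43 between the deletions on bran-cellulose (0.022 with median-of-ratios scaling). PDE_05458 ranged from -0.0067 to 0.50 between the deletions on glucose. PDE_05542 ranged from -0.22 to 0.50 in the difference in response, from -0.26 to 0.31 between the deletions on bran-cellulose and from -0.48 to 0.24 on glucose. PDE_09197 ranged from -0.091 to 0.37 in the difference in response and from -0.25 to 0.085 between the deletions on bran-cellulose. PDE_03635 in Dhap5 on glucose was at -0.054 after quantile normalization. The causes were not tested.

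Median-of-ratios scaling moved the median of all genes by -0.22 in Dhap5 and by -0.13 in Dhap3 against wild type on glucose, and by 0.12 in the difference in response. The share of calls that were higher went from 71.6% to 60.7% in the first of these and from 35.4% to 49.4% in the last. After quantile normalization these shares were 54.5% and 51.8%, and the share went from 63.6% to 52.3% in Dhap3 against wild type on glucose and from 72.6% to 59.2% between the deletions on glucose.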
